A study of Rattus norvegicus with 12 samples.

Results

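The insulin-like growth factor (IGF) genes measured here were 9: the ligands Igf1 and Igf2, the receptors Igf1r and Ghr, and the binding proteins Igfbp2, Igfbp3, Igfbp4, Igfbp5 and Igfbp6. They were chosen by name, and their probes were found through the RefSeq accession that the array annotation gives for each probe. All 9 genes had a probe, 13 probes in all, among 30367 probes on the array, and the 9 genes were tested among 20425 features. Every one of the 13 probes was well above background on all 12 arrays.

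RNA from the bladder body, the part of the urinary bladder that holds the detrusor muscle and its urothelial lining, was hybridised to 1-colour Agilent arrays, 1 male Fischer 344 rat per array. One group of 4 rats was 25 to 28 months old and calorie restricted: food was offered on only 3 days of each week, starting when the rats were 6 weeks old, which lowered their intake by about 40% relative to the freely fed old rats. A second group of 4 rats was also 25 to 28 months old and ate freely, and the last group of 4 rats was 6 months old and ate freely. The labels give no difference in genotype or drug between the groups.

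Growth hormone acts through its receptor, Ghr, and the kinase Jak2 to raise transcription of Igf1 in the liver and, locally, in many other tissues. IGF-I and IGF-II signal through the receptor tyrosine kinase encoded by Igf1r, which drives growth and survival through the phosphatidylinositol 3-kinase and MAP kinase cascades. The IGF binding proteins hold the ligands outside the cell, limiting or prolonging their access to the receptor, and are themselves cut by proteases. In the bladder wall, IGF-I is known as a growth factor for smooth muscle and connective tissue.

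Levels are given as log2 of the processed signal minus log2 of the array's 75th percentile, so a level of 0 is the brightness of the 75th percentile spot. A probe's brightness depends on its sequence, so levels were compared between animals and not between genes. Differences are log2 differences from limma, with the Benjamini-Hochberg adjusted p over all 20425 features, and a gene was called where that p was under 0.05. The p-values rest on the spread between animals within groups, pooled over all 3 groups and moderated across genes. The spread among young rats therefore also enters the comparison of restricted with freely fed old rats.

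Defining markers of the tissue were measured as labelled: 10 of 10 smooth muscle markers and 11 of 12 urothelial markers were tested. The 75th percentile signal ran from 4123 to 4697 in old restricted rats, from 4646 to 4892 in old freely fed rats and from 3993 to 4837 in young rats. Negative control spots did not overlap between groups. Relative to that percentile, their mean log2 signal was -9.8 to -9.5 in old restricted, -10.5 to -10.0 in old freely fed and -9.2 to -8.9 in young rats. The old freely fed and young arrays shared 1 slide and 1 scan, in different array rows, whereas the old restricted arrays were on a second slide with its own scan. Calorie restriction and slide therefore cannot be told apart in any comparison with restricted rats. Age and array row likewise cannot be told apart between the freely fed groups. Old freely fed replicate 2 stood apart from the rest of its group, at 51.9 on the first principal component against 7.27 to 13.7 for the other 3, and had the highest summed leukocyte markers of all 12 animals. Called members are therefore also given without it.

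The start regions of 4 genes are shown because Igf1 and Igfbp4 were the members with called differences, and Igf1r and Igfbp2 were further members in which the levels of restricted and freely fed old rats did not overlap. Each run covers 250 bases before to 50 bases after the annotated start in RefSeq, build GRCr8, read 5′ to 3′ on the plus strand. The intervals are chr7:24172282-24172581 for Igf1, chr10:84491221-84491520 for Igfbp4, chr1:130959747-130960046 for Igf1r and chr9:81864561-81864860 for Igfbp2. Capitals mark matches, on either strand, to any of 6 motifs. These were the TATA box as TATAAA, the CCAAT box as CCAAT, the GC box as GGGCGG, the E-box as CACGTG, a forkhead word as GTAAACA and a STAT word as TTCNNNGAA, and no marked matches overlapped.
Igf1: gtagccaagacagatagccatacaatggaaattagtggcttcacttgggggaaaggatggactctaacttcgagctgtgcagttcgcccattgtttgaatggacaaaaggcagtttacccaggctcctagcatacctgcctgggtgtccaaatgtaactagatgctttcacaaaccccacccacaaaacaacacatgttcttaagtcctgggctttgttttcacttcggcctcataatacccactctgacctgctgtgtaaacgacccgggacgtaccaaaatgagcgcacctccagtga
Igfbp4: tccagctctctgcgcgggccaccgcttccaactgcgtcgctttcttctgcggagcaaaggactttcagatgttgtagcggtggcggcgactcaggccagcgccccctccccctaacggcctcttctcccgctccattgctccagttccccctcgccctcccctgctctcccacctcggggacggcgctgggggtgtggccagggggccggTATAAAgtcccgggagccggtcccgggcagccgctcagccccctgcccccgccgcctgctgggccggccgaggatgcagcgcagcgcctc
Igf1r: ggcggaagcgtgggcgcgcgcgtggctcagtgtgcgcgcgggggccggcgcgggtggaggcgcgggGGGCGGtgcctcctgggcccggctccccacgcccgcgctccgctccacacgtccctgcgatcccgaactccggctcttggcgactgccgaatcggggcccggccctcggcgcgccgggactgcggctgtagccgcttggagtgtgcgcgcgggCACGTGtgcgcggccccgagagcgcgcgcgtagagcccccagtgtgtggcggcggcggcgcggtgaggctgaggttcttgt
Igfbp2: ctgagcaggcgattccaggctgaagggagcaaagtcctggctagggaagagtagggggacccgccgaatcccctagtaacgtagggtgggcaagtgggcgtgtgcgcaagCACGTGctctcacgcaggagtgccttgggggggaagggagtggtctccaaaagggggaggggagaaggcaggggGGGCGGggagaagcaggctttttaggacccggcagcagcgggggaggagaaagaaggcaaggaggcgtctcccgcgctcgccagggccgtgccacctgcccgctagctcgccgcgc

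Igf1 held none of these letters in its window, and Igfbp4 held TATAAA with its first base 40 bases before the start, a word present in 14.2% of all 33469 windows. Igf1r and Igfbp2 each held GGGCGG and CACGTG, a pair found together in 3.09% of windows. GGGCGG alone was in 33.1% of windows and CACGTG alone in 6.42%. Among the other members, Igfbp6 held GTAAACA (3.78% of windows), Ghr held CCAAT (37.5%) and the 2 windows of Igf2 each held GGGCGG, while TTCNNNGAA (8.87%) was in none of the 10 member windows. The motifs were chosen with the expression values known, and a match describes letters only.

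In the comparison of old with young freely fed rats, which asks how the bladder changes with age, Igf1 was lower and Igfbp4 was higher in old rats. These were the 2 called members of 9, 1 in each direction, where 3.72% of all features were called (1.63% higher and 2.1% lower). The other 7 members did not pass. The median log2 difference over the members was 0.05, against -0.05 over all features, and 1 of the 9 had groups that did not overlap, where 15.1% of all features had such groups. In bulk tissue, fewer cells of a type and less RNA per cell cannot be told apart.

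Igf1, the ligand whose local production follows growth hormone and mechanical load, had levels of 3.73, 3.97, 3.68 and 3.51 in old freely fed rats, against 4.44, 4.16, 4.29 and 3.88 in young rats. Of the 4 young animals, 3 were above every old freely fed animal, and the lowest young animal lay below the highest old one, so the groups overlapped. Igf1 fell by 0.47 on the log2 scale in old freely fed rats (SE 0.11, 95% interval -0.72 to -0.22, limma adjusted p = 0.0452), a 1.38-fold difference. This call was close to the threshold: it held in 2 of the 12 fits that each left out 1 animal, those without old freely fed replicate 2 (-0.55, adjusted p = 0.0389) and without young replicate 4 (-0.57, adjusted p = 0.0219). With quantile scaling the difference was -0.39 (adjusted p = 0.0829). Fibroblast markers were also lower: 10 of 11 were lower in old freely fed rats, and 2 of them, Col1a2 and Cd34, passed. With 1 animal left out at a time, Col1a2 passed in 6 of 12 fits and Cd34 in 3. Summed fibroblast markers ran from 181 to 247 in old freely fed rats and from 217 to 291 in young rats, relative to the 75th percentile on the linear scale. In such linear sums the brightest markers weigh most. The part of fibroblast markers in the Igf1 difference was not tested.

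Igf1 has a second probe, annotated to another RefSeq transcript of the gene. It read 2.19, 2.28, 2.04 and 1.68 in old freely fed rats, against 2.76, 2.50, 2.51 and 2.26 in young rats. Its difference was -0.46 (95% interval -0.73 to -0.19), nearly the size of the first probe's, with an adjusted p of 0.0579 from limma over all probes.

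Igf2, the ligand best known for fetal growth and imprinted expression, showed no called difference with age. Its levels were 1.31, 0.45, 1.0 and 0.90 in old freely fed rats, against 0.69, 0.88, 0.90 and 0.98 in young rats. The old freely fed animals included both the highest and the lowest level of all 12. The difference was 0.05 (95% interval -0.26 to 0.36, limma adjusted p = 0.841).

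Of the receptors, Igf1r had levels of -2.69, -2.67, -2.46 and -2.48 in old freely fed rats, against -2.38, -2.56, -2.42 and -2.32 in young rats. In all, 3 young animals lay above all 4 old freely fed animals and 1 lay among them. The difference was -0.16 (95% interval -0.33 to 0.02, limma adjusted p = 0.244). Ghr, the growth hormone receptor, ran from -1.33 to -1.07 in old freely fed rats and from -1.42 to -1.15 in young rats, a difference of 0.09 (95% interval -0.09 to 0.28, adjusted p = 0.523). Its 2 other probes gave 0.25 (95% interval 0.05 to 0.45, adjusted p = 0.118) and 0.11 (adjusted p = 0.466). The probe with the larger difference read -2.22, -2.40, -2.48 and -2.31 in old freely fed rats, against -2.63, -2.61, -2.53 and -2.65 in young rats, so its groups did not overlap.

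**Figure D1:**
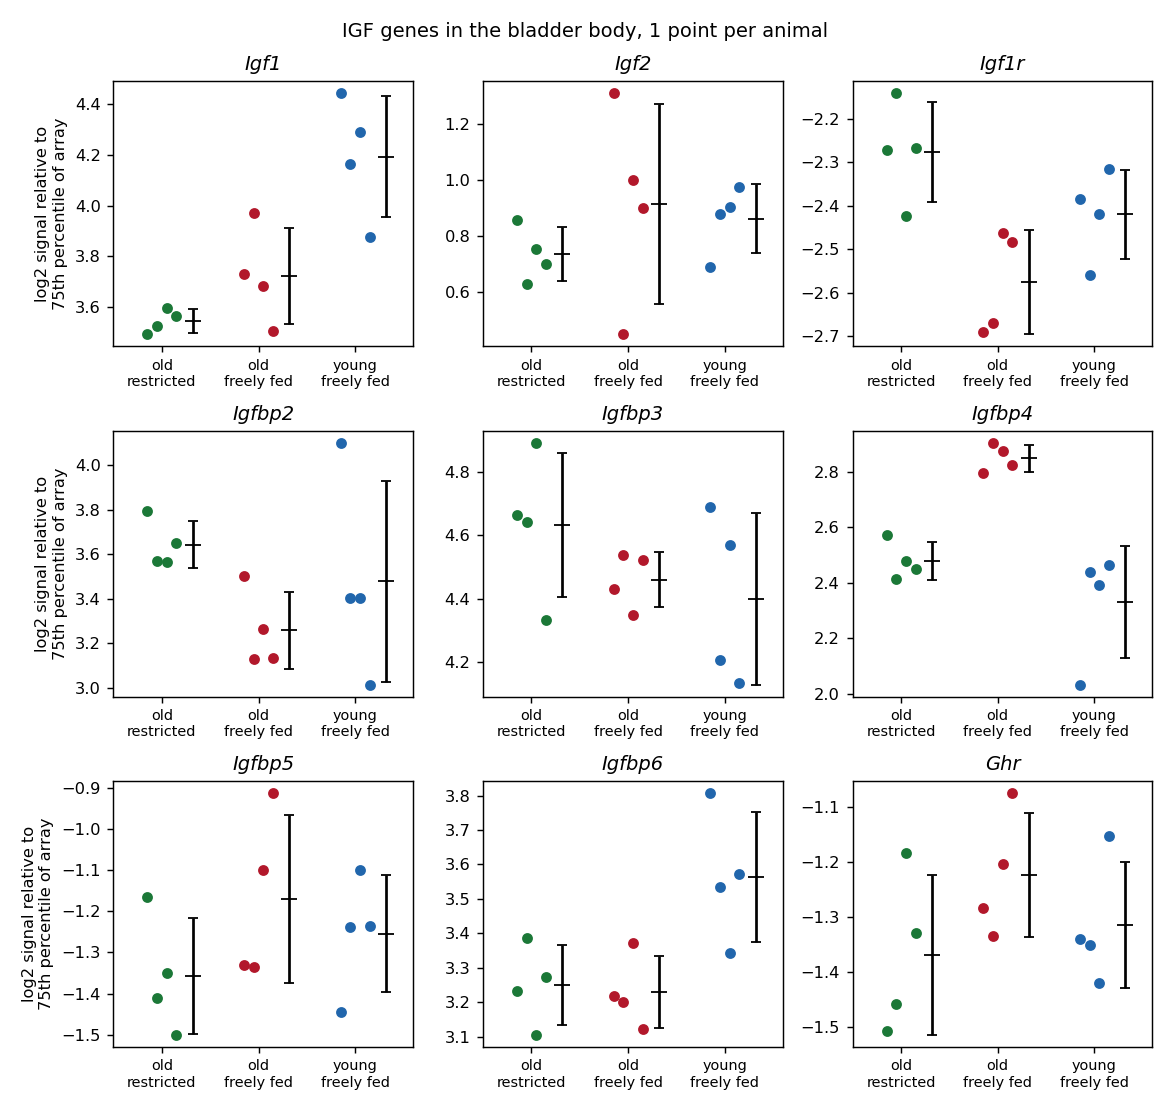
Levels of the 9 IGF genes in each animal, as log2 signal relative to the array's 75th percentile, with the mean and SD of each group beside its 4 points (old restricted, old freely fed and young freely fed rats). Igfbp4 is the gene in which all 4 old freely fed animals (2.80 to 2.90) lie above all others, and Igf1 is highest in the young group.

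Igfbp4, a binding protein that inhibits IGF action until the protease pregnancy-associated plasma protein A cuts it, had levels of 2.80, 2.90, 2.88 and 2.82 in old freely fed rats, against 2.03, 2.44, 2.39 and 2.46 in young rats. Every old freely fed animal was above every young animal. The level rose by 0.52 in old freely fed rats (SE 0.08, 95% interval 0.34 to 0.70, limma adjusted p = 0.0136), a 1.43-fold difference. It passed in all 12 fits that each left out 1 animal, with differences between 0.42 and 0.56. Without old freely fed replicate 2 it was 0.50 (adjusted p = 0.0293), and without young replicate 1, the lowest animal, 0.42 (adjusted p = 0.00578). A fit on only the old and young freely fed arrays gave an adjusted p of 0.0566.

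Leukocyte markers were also higher in old freely fed rats: 6 of the 10 tested passed, all higher, and the other 4 were higher without passing. Cd7, Cd2 and Cd3d, which mark T cells and natural killer cells, were higher by 1.02, 1.21 and 0.88. The summed level of the 10 markers ran from 11.8 to 21.2 in old freely fed rats and from 8.03 to 9.64 in young rats. Of the adipocyte markers, 4 of 5 were higher in old freely fed rats, with Lpl, which encodes lipoprotein lipase, called (0.50, limma adjusted p = 0.0404), and the sums overlapped (8.28 to 9.32 in old freely fed rats and 5.95 to 8.74 in young rats). The Lpl call held in 3 of the 12 fits that each left out 1 animal. All 4 mesothelial markers were higher, with Slpi called (1.29, limma adjusted p = 0.035), and so was the basal urothelial keratin Krt5 (0.66, limma adjusted p = 0.0361), while 9 of 11 urothelial markers were lower. Slpi and Krt5 passed in 5 and 6 of the 12 single-animal exclusions. The part of these markers in the Igfbp4 difference was not tested.

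Igfbp6, a binding protein with a preference for IGF-II, had levels of 3.22, 3.20, 3.37 and 3.12 in old freely fed rats, against 3.81, 3.53, 3.34 and 3.57 in young rats. The levels of 3 young animals were above all old freely fed animals, and the fourth young animal lay just below the highest of them. The difference was -0.33 (95% interval -0.54 to -0.13), and it missed the threshold (limma adjusted p = 0.062), passing only with no filter on dim probes (adjusted p = 0.0348) among the other settings and single-animal exclusions. Smooth muscle markers were lower in old freely fed rats in 10 of 10 cases, with 3 called: Myl9, Myh11 and Synm (4, 5 and 3 of the 12 single-animal exclusions). Their summed level ran from 367 to 519 in old freely fed rats and from 549 to 573 in young rats, so every old freely fed rat was below every young rat. Nerve markers were lower in 7 of 8 cases, with Prph (-0.41) and Stmn2 (-1.02) called, which passed in 5 and 2 of the 12 single-animal exclusions. Nerve sums overlapped, at 52.8 to 58.9 in old freely fed rats and 56.9 to 65.0 in young rats. Striated muscle markers were lower in 4 of 5 cases, with Tnnc2 called (-1.18, 3 of 12 exclusions). Their sums overlapped too, at 11.1 to 25.6 in old freely fed rats and 21.9 to 42.2 in young rats. Of the markers of prostate and seminal vesicle, Klk1 was called lower (-1.24), and Andpro, also called, was well above background in 1 of 4 old freely fed rats and in 4 of 4 young rats. Summed over the 2 measured genes, these markers ran from 0.03 to 0.05 in old freely fed rats and from 0.10 to 0.42 in young rats. The part of these markers in the Igfbp6 and Igf1 values was not tested.

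The remaining binding proteins gave no called difference with age. Igfbp2 ran from 3.13 to 3.50 in old freely fed rats and from 3.02 to 4.10 in young rats, with a difference of -0.22 (95% interval -0.61 to 0.17, limma adjusted p = 0.466). Igfbp3, the main carrier of IGF-I in blood, ran from 4.35 to 4.54 in old freely fed rats and from 4.13 to 4.69 in young rats, with a difference of 0.06 (95% interval -0.23 to 0.35, limma adjusted p = 0.812). Igfbp5, which binds extracellular matrix, ran from -1.34 to -0.91 in old freely fed rats and from -1.44 to -1.10 in young rats, with a difference of 0.08 (95% interval -0.15 to 0.32, limma adjusted p = 0.654).

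The comparison of restricted with freely fed old rats asks what long restriction changed at the same age. Igfbp4 was the 1 called member of 9 and was lower in restricted rats, where 3.64% of all features were called (1.62% higher and 2.02% lower). The 8 other members did not pass. The median log2 difference of the members was -0.15, against 0.03 over all features. In 3 members, Igf1r, Igfbp2 and Igfbp4, the groups did not overlap, where 14.7% of all features had such groups. The age and restriction comparisons share the old freely fed arrays, so a gene with a high level on those arrays differs in opposite directions in the pair.

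Igfbp4 had levels of 2.57, 2.41, 2.48 and 2.45 in old restricted rats, against 2.80, 2.90, 2.88 and 2.82 in old freely fed rats. All restricted animals were below all freely fed old animals, and the SD was 0.07 in restricted and 0.05 in freely fed old rats. Igfbp4 fell by 0.37 in restricted rats (SE 0.08, 95% interval -0.55 to -0.19, limma adjusted p = 0.033), a 1.29-fold difference. The size changed little when animals were left out (-0.40 to -0.35), but the adjusted p passed in 5 of those 12 fits and reached 0.0974 without old restricted replicate 2. It missed the threshold when any 1 of the 4 old freely fed animals was left out (adjusted p = 0.0762 without replicate 2), and also without old restricted replicate 3 (adjusted p = 0.0664) or replicate 4 (adjusted p = 0.083).

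All 10 leukocyte markers were lower in restricted than in freely fed old rats, with 2 called: Cd7 (-1.01) and Cd3d (-0.71). Their summed level ran from 8.90 to 11.9 in old restricted rats and from 11.8 to 21.2 in old freely fed rats, so the groups overlapped at 1 restricted animal. All 5 adipocyte markers were lower in restricted rats, with Lpl called (-1.21, limma adjusted p = 0.0019). Their sums did not overlap (5.80 to 6.99 in old restricted rats and 8.28 to 9.32 in old freely fed rats). These sums rest mostly on Fabp4, the brightest of the 5, which differed by -0.23 without passing (limma adjusted p = 0.206). Endothelial markers were lower in 6 of 7 cases, with Pecam1 called (-0.36, limma adjusted p = 0.0472), and their sums did not overlap either (5.01 to 5.84 in old restricted rats and 6.02 to 6.82 in old freely fed rats). The Pecam1 call held in 2 of the 12 fits that each left out 1 animal. The mesothelial marker Slpi was called lower (-1.36, limma adjusted p = 0.023). The part of these markers in the Igfbp4 difference was not tested.

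**Figure D2:**
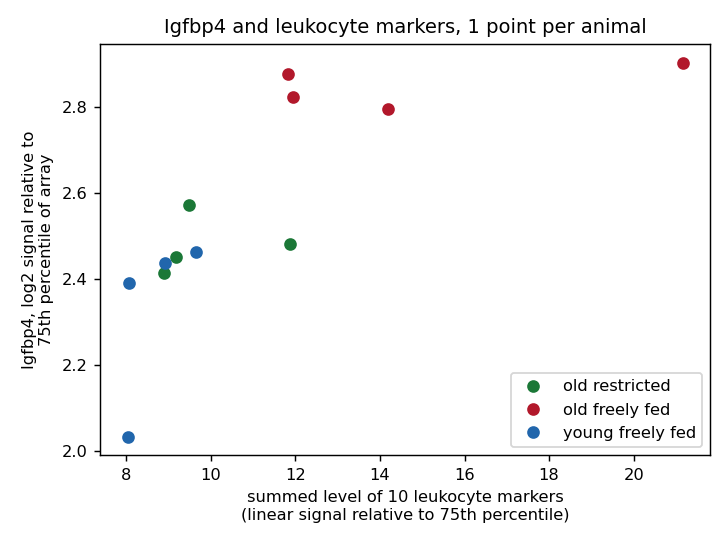
Igfbp4 level (log2 signal relative to the array's 75th percentile) against the summed linear level of 10 leukocyte markers relative to the same percentile, 1 point per animal, coloured by group. The 4 old freely fed rats have Igfbp4 levels of 2.80 to 2.90 at sums of 11.8 to 21.2, and the other 8 animals lie at 2.03 to 2.57 at sums of 8.03 to 11.9.

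Igf1r had levels of -2.27, -2.14, -2.42 and -2.27 in old restricted rats, against -2.69, -2.67, -2.46 and -2.48 in old freely fed rats. Every restricted animal was above every freely fed old animal, by a narrow margin between the nearest animals. The difference was 0.30 (SE 0.08, 95% interval 0.13 to 0.47, 1.23-fold), and it missed the threshold (limma adjusted p = 0.0595). It passed with the normexp background correction (0.30, adjusted p = 0.045) and in none of the 12 fits that each left out 1 animal.

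Igfbp2, a binding protein known from people and rodents to be sensitive to nutrition, had levels of 3.79, 3.57, 3.56 and 3.65 in old restricted rats, against 3.50, 3.13, 3.26 and 3.14 in old freely fed rats. Again the groups did not overlap. The difference was 0.39 (SE 0.18, 95% interval -0.01 to 0.78, limma adjusted p = 0.25). The pooled SE includes the wide spread of the young rats. The adjusted p was 0.0641 with only the 2 groups fitted and 0.0686 without young replicate 1, so neither fit passed. The second probe also separated the groups, at 3.22, 2.93, 2.87 and 3.0 in old restricted rats and 2.82, 2.30, 2.55 and 2.54 in old freely fed rats. Its difference was 0.45 (95% interval 0.03 to 0.88, adjusted p = 0.219). Urothelial markers moved the same way as Igf1r and Igfbp2: 10 of 11 were higher in restricted rats, without passing. Their sums did not overlap, at 349 to 360 in old restricted rats and 295 to 339 in old freely fed rats, and their part in the Igf1r and Igfbp2 values was not tested.

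Neither ligand had a called difference between restricted and freely fed old rats. Igf1 read 3.49, 3.53, 3.60 and 3.57 in old restricted rats, against 3.73, 3.97, 3.68 and 3.51 in old freely fed rats. Of the freely fed old animals, 3 were above all restricted animals, and restricted rats varied less (SD 0.05, against 0.19 in old freely fed rats, n = 4 each). The difference was -0.18 (95% interval -0.43 to 0.07, limma adjusted p = 0.405), and -0.23 by the second probe (adjusted p = 0.314). Igf2 ran from 0.63 to 0.86 in old restricted rats and from 0.45 to 1.31 in old freely fed rats, with a difference of -0.18 (95% interval -0.49 to 0.13, limma adjusted p = 0.498).

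The other members likewise missed the threshold. Ghr differed by -0.15 (95% interval -0.33 to 0.04, limma adjusted p = 0.352), and its other probes gave -0.21 (95% interval -0.40 to -0.01, adjusted p = 0.223) and -0.11 (adjusted p = 0.503). Igfbp3 differed by 0.17 (95% interval -0.12 to 0.46, adjusted p = 0.489), and Igfbp5 by -0.19 (95% interval -0.42 to 0.05, adjusted p = 0.347). Igfbp6 had 3.23, 3.39, 3.11 and 3.27 in old restricted rats and, at nearly the same levels, 3.22, 3.20, 3.37 and 3.12 in old freely fed rats, with a difference of 0.02 (95% interval -0.18 to 0.22, adjusted p = 0.922).

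**Figure D3:**
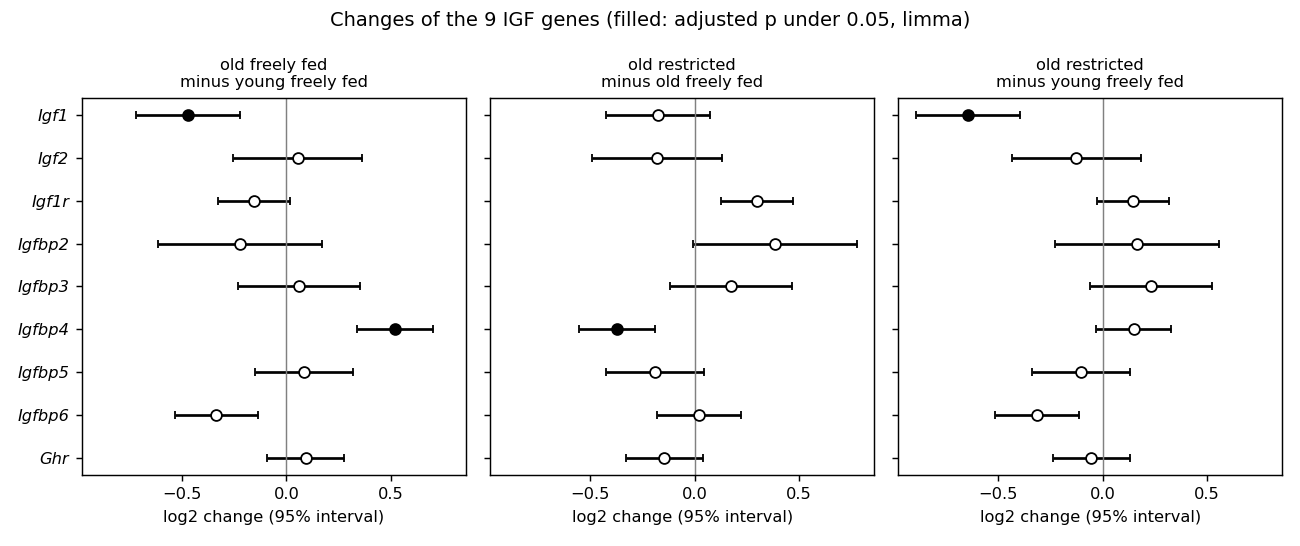
Log2 differences of the 9 IGF genes in the 3 comparisons, with 95% intervals from limma, and filled points where the adjusted p was under 0.05. Igf1 and Igfbp4 are filled for old against young freely fed rats, Igfbp4 for restricted against freely fed old rats, and Igf1 for restricted old against young rats.

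In the comparison of old restricted with young freely fed rats, which asks how far restricted old bladder differed from young bladder, Igf1 was the 1 called member of 9 and was lower in restricted rats. Of all features 9.18% were called in this comparison (3.19% higher and 5.99% lower). The median log2 difference of the members was -0.05, against -0.01 over all features. Igf1 was also the 1 member whose groups did not overlap, where 18% of all features had such groups. This comparison shares arrays with both others, and diet and slide differ along with age.

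Igf1 levels were 3.49, 3.53, 3.60 and 3.57 in old restricted rats, against 4.44, 4.16, 4.29 and 3.88 in young rats. The highest restricted animal was below the lowest young animal. Igf1 fell by 0.65 in restricted rats (SE 0.11, 95% interval -0.90 to -0.40, limma adjusted p = 0.00816), a 1.57-fold difference and the largest of the 27 differences of the 9 genes in the 3 comparisons. It passed in all 12 fits that each left out 1 animal (-0.75 to -0.56) and under all 12 other settings tried. Those settings include the deposited value table, whose intensities were the same, so that fit could only repeat the result. The second probe gave -0.69 (95% interval -0.97 to -0.42, adjusted p = 0.00917), with levels of 1.81, 1.87, 1.75 and 1.82 in old restricted rats, against 2.76, 2.50, 2.51 and 2.26 in young rats. Of the 11 fibroblast markers, 9 were lower in restricted than in young rats and 2 were called, Pi16 and Cd34 (9 and 3 of the 12 single-animal exclusions). Summed fibroblast markers ran from 226 to 234 in old restricted rats, within the 217 to 291 of young rats, and smooth muscle sums ran from 432 to 500 in old restricted rats, below the 549 to 573 of young rats. Of the 10 smooth muscle markers 4 were called lower, among them Synm, Myl9 and Des (10, 9 and 5 of the 12 exclusions). Striated muscle sums also lay lower, at 12.7 to 15.9 in old restricted rats and 21.9 to 42.2 in young rats, with Tnnc2 (-1.37), Tnnt3 (-0.91) and Acta1 (-1.27) called. Acta1 passed in 5 of the 12 exclusions, and Tnnc2 and Tnnt3 in all 12. Of the 8 nerve markers 7 were lower, and Nefl (-1.41), Nefm (-1.30) and Stmn2 (-1.12) were called. Nerve sums overlapped, at 59.6 to 65.4 in old restricted rats and 56.9 to 65.0 in young rats. Of the prostate and seminal vesicle markers Klk1 was called lower (-1.43), and Andpro, also called, was well above background in 0 of 4 old restricted rats and in 4 of 4 young rats. The sums of these 2 genes ran from 0.02 to 0.04 in old restricted rats and from 0.10 to 0.42 in young rats. Lpl (-0.71), the endothelial Cdh5 (-0.35) and the urothelial Tp63 (-0.32) were called lower, and Krt5 (1.01) and the leukocyte marker Cd2 (0.59) higher. Tp63 passed in 6 and Cd2 in 7 of the 12 single-animal exclusions, Cdh5 in 11, and Lpl and Krt5 in 12. Of the 11 urothelial markers, which include Tp63 and Krt5, 5 were higher and 6 lower. The part of these markers in the Igf1 difference was not tested.

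Igfbp4 in old restricted rats (2.41 to 2.57) overlapped the level of young rats (2.03 to 2.46), with a difference of 0.15 (95% interval -0.03 to 0.33, limma adjusted p = 0.279). Igfbp6 ran from 3.11 to 3.39 in old restricted rats and from 3.34 to 3.81 in young rats. Its difference was -0.31 (95% interval -0.51 to -0.11, limma adjusted p = 0.0539), close to that of old freely fed against young rats and, like it, not called. Without young replicate 3, the lowest young animal for this gene, the adjusted p was 0.0264.

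The remaining 6 members had differences between -0.13 and 0.23 from young rats, and none passed. Igf1r differed by 0.14 (95% interval -0.03 to 0.32, limma adjusted p = 0.276) and Igfbp2 by 0.16 (95% interval -0.23 to 0.55, limma adjusted p = 0.6). Igfbp2 varied most among the young rats, at 4.10, 3.40, 3.40 and 3.02. The spread is pooled over the groups, so the SE of Igfbp2 was 0.18 in all 3 comparisons, against 0.08 for Igf1r. Igfbp3 differed by 0.23 (95% interval -0.06 to 0.52, limma adjusted p = 0.295), Igf2 by -0.13 (adjusted p = 0.609), Igfbp5 by -0.10 (adjusted p = 0.581) and Ghr by -0.05 (adjusted p = 0.721).

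**Figure D4:**
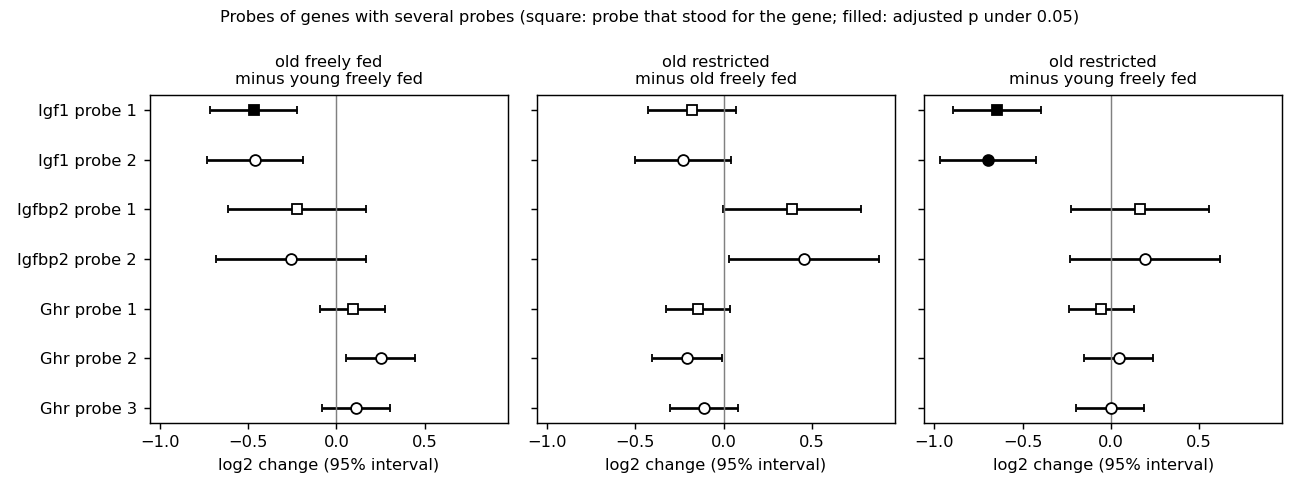
Log2 differences with 95% intervals for each probe of Igf1 (2 probes), Igfbp2 (2) and Ghr (3), from limma over all probes. Squares are the brightest probe, which stood for the gene, and filled symbols passed at an adjusted p under 0.05. The probes of Igf1 and Igfbp2 lie on the same side of 0 in each comparison, whereas those of Ghr lie on both sides for restricted old against young rats (-0.05, 0.04 and -0.00).

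Igf1 averaged 3.55 ± 0.05 in old restricted rats, 3.72 ± 0.19 in old freely fed rats and 4.19 ± 0.24 in young rats (SD, n = 4 here and below), so the young mean was the highest. The means of the old groups, neighbours in that order, did not differ beyond their spread. Igfbp4 averaged 2.48 ± 0.07 in old restricted rats, 2.85 ± 0.05 in old freely fed rats and 2.33 ± 0.20 in young rats, so the old freely fed mean was the highest, and the other groups did not differ beyond their spread. Igf1r averaged -2.28 ± 0.12 in old restricted rats, -2.58 ± 0.12 in old freely fed rats and -2.42 ± 0.10 in young rats, with the young mean in the middle and no neighbouring pair called. Igfbp6 averaged 3.25 ± 0.12 in old restricted rats, 3.23 ± 0.10 in old freely fed rats and 3.56 ± 0.19 in young rats, with the old groups at nearly the same level.

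The genes most like each member over the 12 arrays, by Pearson's r among 11123 features with a symbol that were above background on every array, are given as a description. The 12 points share group differences and array scaling. For Igf1 they were Dpysl4 (r = 0.946), Tgif2 (0.922) and Sulf1 (0.914). For Igfbp4 they were Cd6 (0.958), Ptpn22 (0.938) and Ctsw (0.934), which are genes of T cells and cytotoxic lymphocytes. Measured as deviations from the group means, r was 0.834, 0.689 and 0.718 for the Igf1 list and 0.808, 0.741 and 0.773 for the Igfbp4 list. Both lists were picked on these same arrays, so these r are no separate evidence. For Igfbp4, young replicate 1 lay furthest from its group (2.03, against 2.39 to 2.46 in the other young animals), and r without it was not computed. Cd6 itself was higher by 1.29 in old freely fed than in young rats and lower by 0.77 in restricted than in freely fed old rats. Because Cd6 was picked for following Igfbp4 on these same arrays, its differences follow from that choice and are no separate evidence.

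For Igf1r the nearest genes were Neurl4 (0.933), Abhd14b (0.927) and Casc3 (0.922), and for Igfbp2 they were Desi2 (0.947), Morf4l2 (0.92) and Tbxa2r (0.909). For Igfbp6 they were Myo1c (0.94), Araf (0.929) and Lims2 (0.922). The nearest genes of the other members had lower r: Glb1l3 (0.84), Kcnab1 (0.831) and Rnft2 (0.822) for Igf2, and Ola1 (0.879), Pdia3 (0.842) and Gskip (0.833) for Igfbp3. For Igfbp5 they were Acyp1 (0.896), Fam161a (0.857) and Fgf10 (0.837), and for Ghr they were Hus1 (0.895), Fas (0.887) and Mzt2b (0.861). Between members, r was highest for Igf1 and Igfbp6 (0.697) and lowest for Igfbp4 and Igfbp6 (-0.691).

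Around the 9 genes, 68 other genes of the pathway were tested, listed by role. Further receptors and binding proteins had 7 of 8 listed genes tested, and proteases and inhibitors that act on binding proteins had 9 of 15. Growth hormone receptor signalling had 11 of 12, IGF receptor signalling 37 of 40, and the Igf2 locus with its mRNA-binding proteins 4 of 8. Those 4 were H19, Ins2, Plagl1 and Ctcf, and none of the mRNA-binding proteins (Igf2bp1, Igf2bp2 and Igf2bp3) was tested. In old against young freely fed rats 1 of the 68 was called higher and 1 lower (2.94%). In restricted against freely fed old rats 3 were called higher and 0 lower (4.41%), and in restricted old against young rats 3 were higher and 3 lower (8.82%). These shares stood beside 3.72%, 3.64% and 9.18% of all features.

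Among growth hormone signalling genes Jak2, the kinase bound to the growth hormone receptor, was higher in restricted rats. Its levels were -0.99, -0.91, -1.07 and -0.92 in old restricted rats, against -1.33, -1.19, -1.35 and -1.35 in old freely fed rats and -1.21, -1.31, -1.30 and -1.24 in young rats. All 4 restricted animals were above all 8 others. Jak2 rose by 0.34 relative to old freely fed rats (SE 0.05, limma adjusted p = 0.00793) and by 0.29 relative to young rats (adjusted p = 0.00915), and passed in all 12 fits that each left out 1 animal. The other 10 genes of this list ran from -0.34 to 0.14 in restricted against freely fed old rats, and none passed.

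Among IGF receptor signalling genes Grb14, an adaptor that binds and restrains insulin receptor family kinases, was lower in both old groups than in young rats. Its levels were 0.38, 0.50, 0.35 and 0.52 in old restricted rats and 0.58, 0.06, 0.58 and 0.51 in old freely fed rats, against 1.07, 1.12, 1.07 and 1.0 in young rats. No old animal reached the young range. Grb14 fell by 0.64 in old freely fed rats (SE 0.10, limma adjusted p = 0.0136) and by 0.63 in old restricted rats (adjusted p = 0.00517), both relative to young rats, and differed by 0.00 between the old groups (95% interval -0.22 to 0.22). The age call passed in all 12 fits that each left out 1 animal, including old freely fed replicate 2, the lowest, and did not pass in a fit on only the old and young freely fed arrays.

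A further 6 pathway genes were called. Rheb, an activator of mTOR complex 1, rose by 0.17 in restricted against freely fed old rats (limma adjusted p = 0.0295) and passed in 6 of the 12 single-animal exclusions. It missed the threshold without replicate 2, 3 or 4 of either old group. Grb2, a general adaptor, fell by 0.18 in restricted old against young rats (limma adjusted p = 0.0333, 6 of 12 fits). It did not pass by the second-brightest probe, with normexp, or when any restricted animal was left out. Foxo3, a transcription factor that Akt holds in the cytoplasm, rose by 0.33 in that comparison (limma adjusted p = 0.0449, 3 of 12 fits). Igfbpl1, an IGF binding protein-like gene, rose by 0.97 in restricted against freely fed old rats (limma adjusted p = 0.0379, 5 of 12 fits). Igfbp1, the insulin-suppressed binding protein made chiefly by the liver, fell by 0.41 in restricted old against young rats (limma adjusted p = 0.0262, 7 of 12 fits).

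Plagl1, an imprinted zinc finger gene, was called in 2 comparisons. It rose by 0.30 in old freely fed against young rats (limma adjusted p = 0.035, 7 of 12 fits) and by 0.32 in restricted old against young rats (adjusted p = 0.0155, 12 of 12 fits), but its second probe did not pass in either. None of the 9 tested proteases and inhibitors passed in any comparison by limma, with differences from -0.30 to 0.85 in old against young freely fed rats and from -0.62 to 0.20 in restricted against freely fed old rats. Pappa, the gene of pregnancy-associated plasma protein A, and Pappa2 had no named probe, so that protease was not measured.

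**Figure D5:**
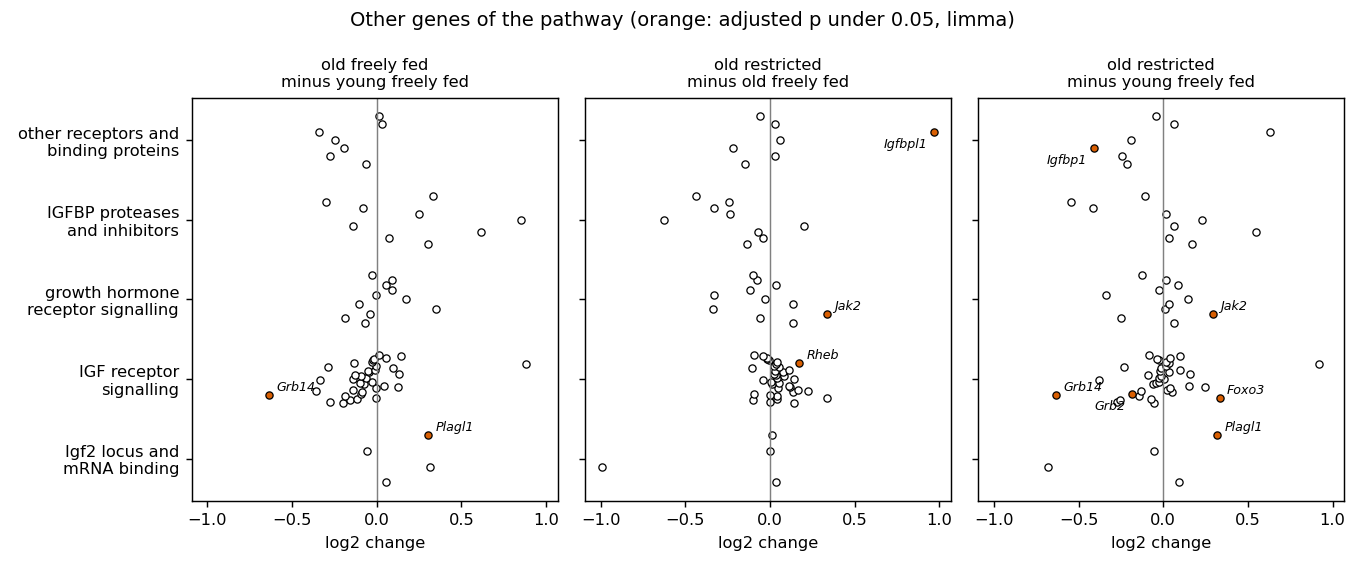
Log2 differences of 68 further pathway genes in the 3 comparisons, 1 point per gene, in rows by role, with orange points where the limma adjusted p was under 0.05. The row for the Igf2 locus and mRNA binding holds H19, Ins2, Plagl1 and Ctcf. Grb14 is orange on the left side (-0.64 and -0.63) in both comparisons with young rats, and Jak2 is orange on the right side (0.34 and 0.29) in both comparisons of restricted rats.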

How the data were processed

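Each array's values were spot intensities that the authors deposited as Agilent Feature Extraction 10.7 output, background-subtracted and detrended within the array and not scaled between arrays, per the file headers. Those headers also name array design 028279 and build rn4. The other columns used were the deposited flags for spots well above background, saturated or outlying (category other), per the file headers. The deposited value table of the whole series held the same intensities (100% of spots equal within a relative 1e-06).

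Control spots (leaving 58717) and outlier spots were left out, spots of a probe were averaged in log2, and 91 averages rested on outlier spots only. Log2 intensity minus that of the array's 75th percentile was used. A probe was kept if any 1 group had it well above background on each of its 4 arrays, and the brightest probe stood for a gene, which gave 20425 features. Probes were named through RefSeq accessions, and 59.3% of the 30367 probes had a symbol. All 12 arrays were fitted together with limma 3.58 in R 4.3 (lmFit, eBayes with a brightness trend, 9 residual degrees of freedom, two-sided, Benjamini-Hochberg over all features). The number of arrays limits the precision. On simulated data for old against young freely fed rats with 50 changed genes of each size among 20425, the test found 64% of those at 1.5-fold and 86% of those at 2-fold, and 5 of its 174 calls were false.

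The text names all 9 members, up to 6 called genes of each pathway list, the 3 features with a symbol most like a member and called markers of other cell types (up to 3 a list). The members and lists were chosen with earlier results of these data known. Replicate numbers are those in the source names of the labels. Animals with the same such number did not deviate together (correlations of -0.19 to 0.10), so these numbers do not pair them. The sample titles carry different numbers, which were not checked for pairing. The normexp alternative used the median spot signal in place of the mean signal. Alternatives covered scaling, background, filter, probe choice, error model, arrays fitted, a replicate block and each animal left out.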

Additional observations from a re-analysis of the deposited data

Results flagged for a closer look

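Among the 27 groups of 4 animals (9 genes in 3 groups) examined for a single distant animal with Dixon's ratio at its critical value of 0.829, 1 was past it, and chance flags about 1 in 20 groups. Igfbp4 in young freely fed replicate 1 was at 2.03, against 2.39 to 2.46 in the other young animals, with a gap of 0.832 of the group's range. Without that animal the difference of old from young freely fed rats was 0.42 (limma adjusted p = 0.00578), against 0.52 with it, and the difference of old restricted from young rats was 0.05 (adjusted p = 0.576), against 0.15 with it.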

How the results depend on the processing

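Of the 9 members, 2 were called in old against young freely fed rats. The count was 1 with quantile scaling, the normexp background correction, normexp with quantile scaling, the second-brightest probe, no brightness trend or the replicate block, and 0 with only the 2 groups fitted. In each of these Igf1 missed the threshold, and in the last Igfbp4 did too. With no filter on dim probes it was 3 (Igfbp6 added). Restricted against freely fed old rats had 1 called member, against 2 with normexp (Igf1r added), and restricted old against young rats had 1, against 2 with no filter on dim probes (Igfbp6 added). The replicate block, in which the replicate number (also the array column) enters the fit although it does not pair the animals, left 0 called members in restricted against freely fed old rats (Igfbp4, -0.37, adjusted p = 0.0618). Leaving out 1 animal at a time gave 1 to 2 called members in old against young freely fed rats, 0 to 1 in restricted against freely fed old rats and 1 to 2 in restricted old against young rats. Over all genes, the 760 calls with age became 462 with normexp and quantile scaling, 3568 with no filter, 440 with no trend, 94 with only the 2 groups fitted and 498 with the replicate block. The 744 calls with restriction became 478 with only the 2 groups fitted, and the 1874 calls of restricted old against young rats became 3259 with no filter. Leave-one-out counts ran from 121 to 927, from 268 to 848 and from 737 to 2089, in the same order of comparisons. The share of calls that were higher was 43.7% with age (58.3% with quantile scaling, 53.7% with median centring, 57.4% with normexp and quantile scaling, 19.4% with no filter, 71.3% with only the 2 groups fitted), 44.5% with restriction (64.1% with normexp) and 34.7% in restricted old against young rats (24% with no filter). The cause of these moves was not tested.

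Small uncalled differences changed sign. With age, leave-one-out values of Igf2 ran from -0.078 (without old freely fed replicate 1; -0.004 without young replicate 1) to 0.208. Those of Igfbp3 ran from -0.029 (without young replicate 4; -0.005 without young replicate 2) to 0.156, and those of Igfbp5 from -0.001 (without old freely fed replicate 4) to 0.14. With restriction, Igfbp6 ran from -0.025 (without old restricted replicate 2; -0.015 without old freely fed replicate 4) to 0.068. In restricted old against young rats, Ghr was 0.043 by the second-brightest probe and ran from -0.116 to 0.001 (without young replicate 4). A slide or scan block could not be fitted, because restricted rats alone were on the second slide.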
